A study of Bos taurus with 9 samples.

Results

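CRYAB, FKBP7 and MANEA are 3 of the 47 genes in a deposited table of differentially expressed genes of bovine blastocysts, the stage at which the early embryo has formed a fluid-filled cavity. They were taken by name as the genes of the table that act in protein folding or glycan processing, with their levels in these same libraries known. The table rests on the libraries described here, and how its genes were picked is not stated, so the differences that involve AKG-free blastocysts are given as descriptions, with no test.

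The libraries fall into 3 groups of 3. AKG-treated blastocysts were vitrified, a rapid cooling that leaves a glass and no ice crystals, and warmed, and are labelled AKG+. AKG is α-ketoglutarate, a metabolite of the mitochondrial citric acid cycle. AKG-free blastocysts were also vitrified and warmed, and are labelled as without AKG. Control blastocysts are not labelled as vitrified or as given AKG. All 9 libraries are labelled as Bos taurus embryos and as female. Neither the dose and timing of AKG nor the number of embryos per library is given in the sources used here. The source is given as embryo and the library type as single cell, with no count of cells, so fewer cells of a type and less RNA per cell cannot be told apart. No label names separate embryo batches within a group, so spreads and p-values measure only how these libraries vary, and part of that may be technical.

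Newly made proteins fold with the help of chaperones, which hold unfolding chains and keep them from clumping. Small heat shock proteins such as CRYAB (αB-crystallin) do this in the cytosol without using ATP. In the endoplasmic reticulum, prolyl isomerases such as FKBP7 help chains to turn around proline bonds, and glycans attached to asparagine are trimmed as folding proceeds. MANEA is the endomannosidase of the Golgi, which removes glucose still linked to mannose from glycans that escaped the earlier glucosidases, so that their processing can go on.

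The 3 genes lie on different chromosomes. By the deposited annotation, with no build named in the sources used here, CRYAB (ENSBTAG00000000434) spans positions 22242326 to 22246349 of chromosome 15 on the minus strand. FKBP7 (ENSBTAG00000001097) spans 18418695 to 18426410 of chromosome 2 on the plus strand, and MANEA (ENSBTAG00000005026) spans 54296791 to 54379111 of chromosome 9 on the minus strand. All are listed as protein coding. The same annotation places FKBP7 in the endoplasmic reticulum with peptidyl-prolyl isomerase activity and calcium binding, MANEA in the Golgi membrane with endo-mannosidase activity, and CRYAB in the pathway of protein processing in the endoplasmic reticulum. In the RefSeq gene table of assembly ARS-UCD2.0, 0 genes overlap any of the 3. The gene next to CRYAB there is HSPB2, which encodes another small heat shock protein. FKBP7 sits between PLEKHA3 and PJVK, and MANEA between FUT9 and EPHA7. None of these neighbours is in the series table, so their levels were not analysed here.

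Relative sequencing depth, from the ratio of count to FPKM, lay between 0.793 and 1.17 in the 9 libraries. Their absolute depth is unknown. FPKM count the fragments of a gene relative to its length and to the mapped fragments of the library. The library with the least depth was control library 2. S100A11, a calcium-binding protein and the most abundant listed transcript in AKG-free libraries 2 and 3, took between 6.28% and 16.0% of the listed counts with AKG treatment. Its share was 9.51% in AKG-free library 1, 48.2% in library 2 and 50.3% in library 3, against 4.59% to 5.95% in controls. Of 14 trophectoderm markers, 1 is in the table, PAG11, a glycoprotein of the ruminant trophoblast. With AKG treatment it had 1.36, 17.1 and 2.90 FPKM, against 42.2, 67.9 and 24.0 FPKM in the AKG-free libraries and 1.52, 0 and 1.44 FPKM in the control libraries. The table holds 0 of 8 cumulus cell, 0 of 8 blood cell and 0 of 6 sperm markers, and 0 of 8 inner cell mass and 0 of 7 hypoblast markers, so the makeup of the libraries was not tested.

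CRYAB was close to absent outside the AKG-free group. AKG-treated libraries 1, 2 and 3 gave 0.464, 0.266 and 0 FPKM, from 37, 23 and 0 counts. AKG-free libraries 1, 2 and 3 gave 7.25, 9.47 and 17.3 FPKM, from 699, 837 and 1763 counts, and CRYAB had 0 counts in all 3 control libraries. The AKG-free libraries stood apart from the other 6, and the lowest of them was 15.6-fold above the highest AKG-treated library. Scaled for depth, 97.9% of all CRYAB counts lay in the AKG-free libraries.

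FKBP7 was detected in every library. AKG-treated libraries 1, 2 and 3 held 5.19, 5.56 and 5.41 FPKM, from 263, 308 and 311 counts. Its level was 9.67, 16.3 and 21.4 FPKM in the AKG-free libraries, from 599, 923 and 1397 counts, and 3.63, 1.49 and 4.03 FPKM in the control libraries, from 223, 66 and 206 counts. The groups formed 3 separate ranges, with AKG-treated libraries between AKG-free and control ones. Control library 2 was the lowest of the 9.

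MANEA was the most abundant of the 3 in every library on the per-length FPKM scale. The 3 AKG-treated libraries held 30.3, 25.6 and 22.4 FPKM. MANEA was at 35.5, 75.6 and 64.5 FPKM in the AKG-free libraries, and 17.0, 9.47 and 16.9 FPKM in the control libraries. Counts ran from 783 in control library 2 to 7989 in AKG-free library 2. Its groups also formed 3 separate ranges in the same order, but AKG-free library 1 was only 1.17-fold above the highest AKG-treated library.

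**Figure D1:**
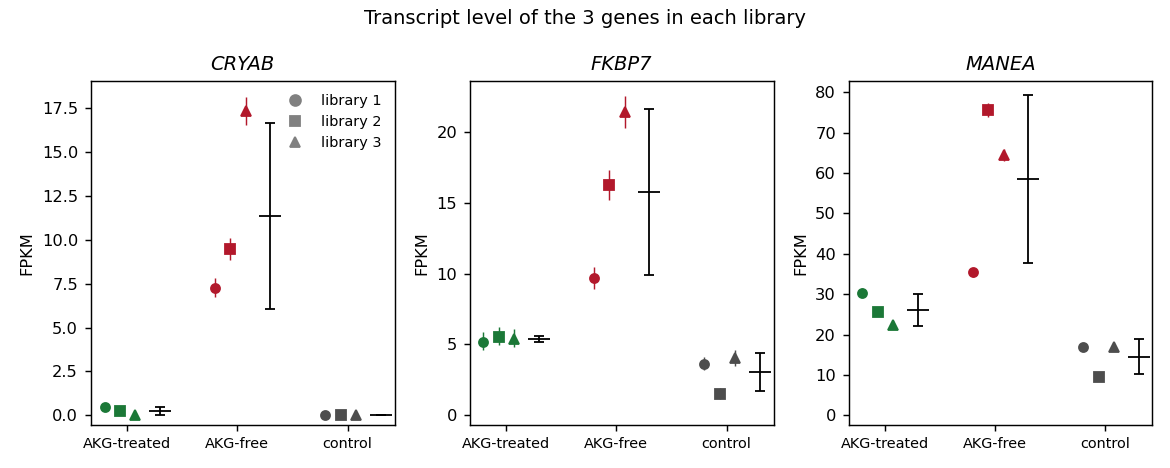
Level of CRYAB, FKBP7 and MANEA in FPKM (vertical axis, linear, 1 scale per gene) in AKG-treated, AKG-free and control libraries. Each point is 1 library with its exact 95% Poisson interval, which covers counting error only, and the black bar to the right is the group mean with its SD (n = 3). CRYAB lies at 0.464 FPKM or below in all but the AKG-free libraries, while FKBP7 and MANEA show 3 separate ranges.

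The order of levels between the genes was the same in all libraries with reads of each. Over the 9 libraries MANEA averaged 33.0 FPKM, FKBP7 8.07 FPKM and CRYAB 3.86 FPKM, which ranked 7, 13 and 20 among the 47 listed genes. FKBP7 was 11.2-fold and 20.9-fold above CRYAB in AKG-treated libraries 1 and 2, but 1.33-fold, 1.72-fold and 1.23-fold above it in AKG-free libraries 1, 2 and 3. MANEA and FKBP7 kept a closer ratio. MANEA was 5.84-fold, 4.61-fold and 4.14-fold above FKBP7 in the AKG-treated libraries, 3.67-fold, 4.65-fold and 3.01-fold in the AKG-free libraries, and 4.68-fold, 6.37-fold and 4.20-fold in the control libraries. The mean ratio was 4.86 ± 0.878 in AKG-treated, 3.78 ± 0.822 in AKG-free and 5.09 ± 1.14 in control libraries (SD, n = 3 each), and the ranges overlapped.

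AKG-free blastocysts were set against controls to describe the levels after vitrification and warming. CRYAB averaged 11.3 ± 5.30 FPKM in AKG-free libraries and had 0 counts in controls. That mean was 303-fold a floor of 3 counts in each control library (on average 0.0375 FPKM). The ratio is no lower bound. By exact Poisson intervals a count of 0 allows up to 0.0386 to 0.0533 FPKM in control libraries, above that floor. FKBP7 averaged 15.8 ± 5.88 FPKM in AKG-free and 3.05 ± 1.37 FPKM in control libraries, 5.17-fold higher. MANEA averaged 58.5 ± 20.7 FPKM in AKG-free and 14.5 ± 4.33 FPKM in control libraries, 4.04-fold higher (SD, n = 3 each). For 3 of the 3 genes the lowest AKG-free library was above the highest control library. Of the 29 listed genes with a mean of at least 0.5 FPKM, 51.7% were higher in AKG-free libraries without overlap. Since the table presents its genes as differing, by a rule that is not stated, nothing is read from either number. CRYAB passed that minimum only through the AKG-free libraries, so it had to differ.

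On the log2(FPKM + 1) scale, which understates the change of low genes, the differences between AKG-free and control means were 3.54 for CRYAB (SE 0.40), 2.05 for FKBP7 (SE 0.46) and 1.92 for MANEA (SE 0.45). CRYAB ranked 3 from the highest of the 29 genes, FKBP7 ranked 10 and MANEA ranked 11. The median of the 29 genes was 1.67 by gene, so FKBP7 and MANEA lay near the middle of the list. The median log2 value within AKG-free libraries was itself 1.11 above that within controls. Relative to that shift the differences were 2.43 for CRYAB, 0.94 for FKBP7 and 0.81 for MANEA. With quantile normalization, which gives the libraries 1 common distribution, they were 2.89 for CRYAB, 0.84 for FKBP7 and 0.47 for MANEA, so all 3 kept their direction under both, at smaller sizes.

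The AKG-free libraries differed among themselves in a way that the 3 genes shared in part. AKG-free library 1 was the lowest of the group for all 3 genes, and the highest library exceeded it 2.39-fold for CRYAB, 2.21-fold for FKBP7 and 2.13-fold for MANEA. Library 3 was the highest for CRYAB and FKBP7, and library 2 for MANEA. AKG-free library 1 was also the lowest for 15 of the 21 listed genes whose AKG-free mean exceeded the control mean. S100A11 was at 57.4 FPKM in AKG-free library 1, against 1178 FPKM in library 2 and 1866 FPKM in library 3. What sets library 1 apart and its part in the levels of the 3 genes were not tested.

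AKG-treated blastocysts were set against AKG-free ones to describe the levels with AKG. CRYAB averaged 0.243 ± 0.233 FPKM in AKG-treated libraries, 2.14% of the AKG-free mean of 11.3 ± 5.30 FPKM. FKBP7 averaged 5.39 ± 0.185 FPKM in AKG-treated libraries, 34.2% of the AKG-free mean of 15.8 ± 5.88 FPKM. MANEA averaged 26.1 ± 3.97 FPKM in AKG-treated libraries, 44.6% of the AKG-free mean of 58.5 ± 20.7 FPKM (SD, n = 3 each). The libraries did not overlap for 3 of the 3 genes, beside 41.4% of the 29 genes that were lower in AKG-treated libraries without overlap. This contrast too is one the table presents, and it shares the AKG-free libraries with the comparison above, so the opposite directions of the differences are not separate observations.

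The differences of AKG-treated minus AKG-free means on the log2(FPKM + 1) scale were -3.25 for CRYAB (SE 0.40), -1.33 for FKBP7 (SE 0.46) and -1.08 for MANEA (SE 0.45). CRYAB had the lowest value of the 29 genes, whose median was -1.39, while FKBP7 ranked 16 and MANEA 20 from the lowest. Since CRYAB was among the 29 only through the AKG-free libraries, it had to be lower in AKG-treated ones, and nothing is read from its rank. The median log2 value of a library was 0.65 lower in AKG-treated than in AKG-free libraries. Relative to that shift the differences were -2.60 for CRYAB, -0.68 for FKBP7 and -0.43 for MANEA, and MANEA turned to 0.17 with quantile normalization. That method and the centring assume that most genes keep their level, which cannot be taken to hold for a list of genes presented as differing.

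**Figure D2:**
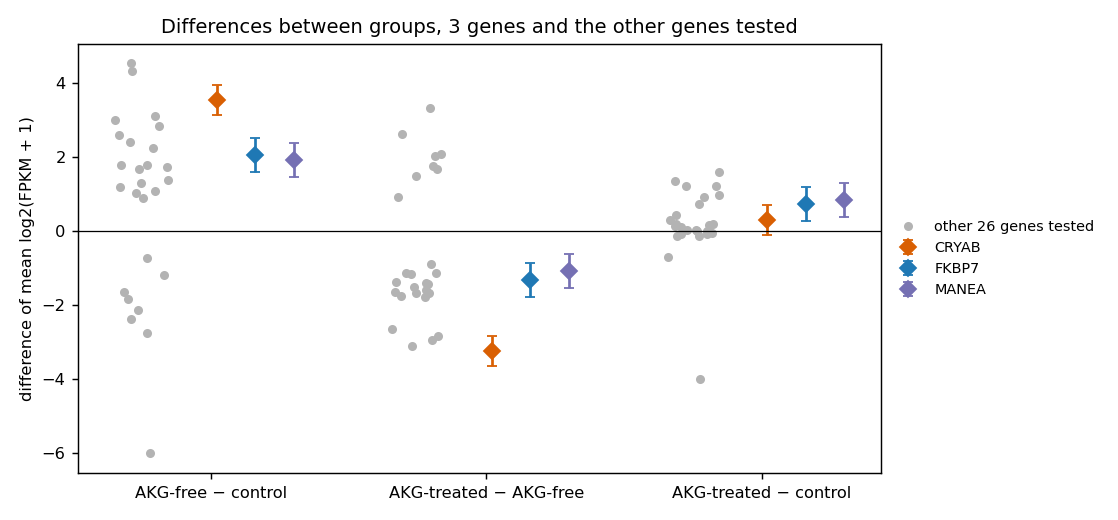
Difference of group means on the log2(FPKM + 1) scale (vertical axis) for CRYAB, FKBP7 and MANEA (diamonds with the limma SE) and for the other genes with a mean of at least 0.5 FPKM (grey points). CRYAB is at 3.54 and -3.25 in the comparisons with AKG-free libraries and at 0.30 between AKG-treated and control libraries, while FKBP7 and MANEA lie among the grey points throughout.

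For FKBP7 and MANEA the relative spread between libraries was smallest with AKG. FKBP7 had a coefficient of variation of 3.43% in AKG-treated libraries, against 37.3% in AKG-free and 44.9% in control libraries. Counting error alone, taking reads as independent, would give 5.85%, 3.40% and 9.04% in these groups. Over all listed genes the AKG-treated libraries differed far beyond counting error, with a chi-square per degree of freedom of 386 to 457 between pairs, so the small spread of FKBP7 does not show that these libraries vary little. MANEA had 15.2% in AKG-treated, 35.4% in AKG-free and 29.9% in control libraries, all above a counting error of 1.29% to 2.84%. With 3 libraries a group, the difference in spread was not tested.

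AKG-treated libraries were compared with control libraries to ask which differences remained in vitrified and warmed blastocysts labelled AKG+. The table is not known to have been chosen on this contrast, so it was tested with limma over the 29 genes, but the choice of the members with these levels in view still limits the p-values. On the log2 scale this difference is the sum of the AKG-free minus control and AKG-treated minus AKG-free differences. If the list was picked on those, the picking can also shape this outcome, including how few genes pass. FKBP7 averaged 5.39 ± 0.185 FPKM in AKG-treated and 3.05 ± 1.37 FPKM in control libraries, a ratio of 1.77. MANEA averaged 26.1 ± 3.97 FPKM in AKG-treated and 14.5 ± 4.33 FPKM in control libraries, a ratio of 1.80. CRYAB averaged 0.243 ± 0.233 FPKM in AKG-treated libraries and had 0 counts in controls, a mean 6.49-fold the same floor (SD, n = 3 each). That ratio is again no lower bound, and the groups overlapped, since AKG-treated library 3 also had 0 counts.

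None of the 3 genes passed limma. The difference on the log2(FPKM + 1) scale was 0.72 for FKBP7 (SE 0.46, 95% interval -0.31 to 1.76, limma adjusted p = 0.559). It was 0.84 for MANEA (SE 0.45, 95% interval -0.18 to 1.87, limma adjusted p = 0.559). It was 0.30 for CRYAB (SE 0.40, 95% interval -0.61 to 1.20, limma adjusted p = 1), and it turned to -0.17 when each library was centred on its median. The 3 control libraries at 0 add no spread to the SE of CRYAB. The fit pools the spread of all 9 libraries, so each SE also draws on the AKG-free libraries, which are outside this contrast. In all, limma called 0% of the 29 genes, and at an unadjusted p under 0.05 it had 0 higher genes and 1 lower gene, NPSR1, named after its values were seen. These unadjusted values depended on the pooled spread. With limma on only the 6 libraries compared, 0 genes passed, but 3 higher and 0 lower genes had an unadjusted p under 0.05. The unadjusted limma p was then 0.0439 for MANEA and 0.0738 for FKBP7, against 0.0953 and 0.150 with all 9 libraries. The 95% intervals of the fit on all 9 libraries do not show equal levels. On this scale they reach a 3.39-fold higher value for FKBP7 and a 3.64-fold higher value for MANEA.

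AKG-treated and control libraries did not overlap for FKBP7 and MANEA, where 20.7% of the 29 genes were higher in AKG-treated libraries without overlap. The nearest libraries of the groups lay 1.29-fold apart for FKBP7 and 1.32-fold apart for MANEA. FKBP7, MANEA and MOGAT1, which makes diacylglycerol, were the 3 of the 29 genes without overlap in 1 order of the groups. AKG-free libraries were highest, AKG-treated ones between and control ones lowest, and other orders were not searched for. This ordering was noticed in the data and has no test. The median log2 value of a library was 0.47 higher in AKG-treated than in control libraries, and relative to it FKBP7 differed by 0.25 and MANEA by 0.37. Without control library 2, the lowest for FKBP7 and MANEA, the difference was 0.40 for FKBP7 (limma adjusted p = 0.837). Control library 2 was the lowest control library for 13 of the 29 genes and the highest for 10.

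The call on CRYAB depended on the tool. Both groups of this comparison were below the minimum of 0.5 FPKM for CRYAB, so it was among the 29 genes only through the AKG-free libraries. It was also chosen with its zeros in controls known, so no p-value or call for it in this comparison is evidence of a difference. With edgeR's quasi-likelihood test on the counts of the 29 genes, CRYAB missed the threshold (adjusted p = 0.394) and 0 genes passed. At an unadjusted p under 0.05 it had 2 higher genes, CRYAB and MOGAT1, and 0 lower genes. With DESeq2's Wald test CRYAB passed as the only gene (adjusted p = 0.0293), and with size factors that DESeq2 estimated from the listed genes it missed (adjusted p = 0.0701). Fitted folds against a group of zeros depend on the model and give no size of the change. The 37 and 23 counts of AKG-treated libraries 1 and 2 have exact 95% Poisson intervals of 0.331 to 0.647 and 0.169 to 0.400 FPKM. By the same intervals, a count of 0 allows up to 0.0413 FPKM in AKG-treated library 3, and 0.0386 to 0.0533 FPKM in control libraries. The floor of 3 counts used for the folds is lower, at 0.0336 FPKM in AKG-treated library 3 and 0.0314 to 0.0434 FPKM in control libraries. The intervals of AKG-treated libraries 1 and 2 lay above those of the controls, and that of library 3 did not. This describes the counts and, for the reasons given, is no evidence of a difference. Intervals and floors cover counting error only, since PCR copies were not told apart by molecular identifiers.

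**Figure D3:**
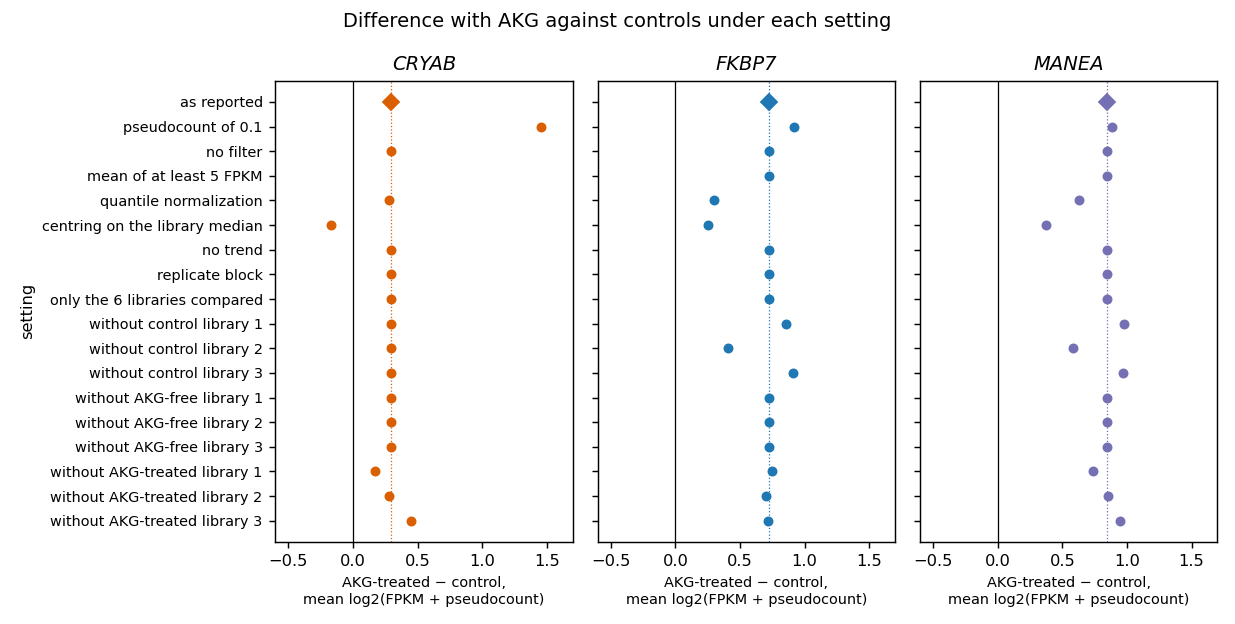
Difference of AKG-treated minus control means on the log2 scale (horizontal axis) for each gene under the setting reported (diamond) and each alternative on FPKM (points, vertical axis). FKBP7 stays above 0 in every setting, from 0.25 to 0.92, MANEA likewise, and CRYAB lies at -0.17 with centring and 1.46 with a pseudocount of 0.1.

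Profiles were then compared across the table. Each library was expressed as a percentage of the gene's highest library, and likeness was the mean absolute difference over the 9 libraries, in percentage points. Among the 22 other genes with a symbol and a mean of at least 0.5 FPKM, the profiles nearest to CRYAB were those of S100A11 (6.37 points), MOGAT1 (7.59 points) and CYP27B1 (7.90 points), the enzyme that activates vitamin D. CRYAB and S100A11 differed most in AKG-free library 1, where CRYAB was at 41.8% and S100A11 at 3.07% of the highest library.

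FKBP7 was nearest to NUCB2, a calcium-binding protein (6.19 points), LIPH, a phospholipase (6.48 points), and COX7B2, a cytochrome c oxidase subunit (8.31 points). MANEA was nearest to FKBP7 (9.24 points), LIPH (10.9 points) and NUCB2 (11.8 points). From FKBP7, MANEA came at rank 4 of 22 and CRYAB at rank 6, with 15.4 points. From CRYAB, FKBP7 came at rank 8 and MANEA at rank 15, with 24.7 points, and from MANEA, CRYAB came at rank 10. The genes of the table share the libraries and were all presented as differing, so like profiles are a description of this list.

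**Figure D4:**
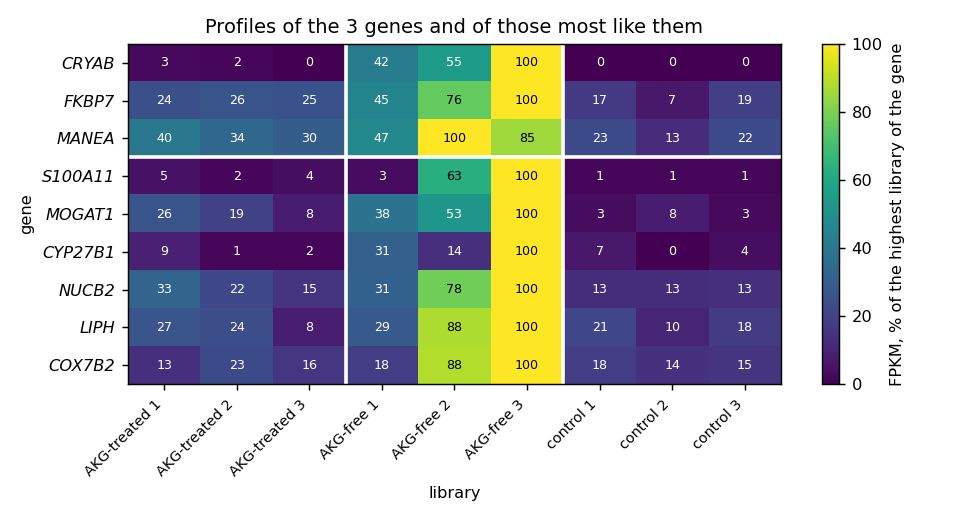
FPKM of each library (horizontal axis) as a percentage of the gene's highest library for the 3 genes (top rows) and the genes nearest to them in profile (lower rows). The highest library of every gene is AKG-free library 2 or 3, AKG-free library 1 is below libraries 2 and 3 in all but CYP27B1, and FKBP7 and MANEA are at 24.3% to 40.1% of their highest level in the AKG-treated libraries while CRYAB is at 2.68% or less.

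Other genes of these pathways were looked up in the table by name. It holds 1 of 26 heat shock proteins and co-chaperones, which is CRYAB, 1 of 29 FK506-binding proteins and other folding factors of the endoplasmic reticulum, which is FKBP7, and 1 of 23 genes of asparagine-linked glycan trimming and quality control, which is MANEA. It holds 0 of 15 genes of the unfolded protein response, the programme that the endoplasmic reticulum starts when unfolded proteins build up. The levels of the other listed pathway genes were not analysed here, so nothing can be said of these pathways beyond the 3 genes.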

How the data were processed

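Per the labels' protocols, RNA of bovine embryos was amplified by SMART-Seq v4 and read as pairs. The submitters' processing notes name cutadapt 1.9, HISAT2 2.0.4, StringTie 1.3.4d, and also edgeR, without saying what each did. Build, annotation and strand setting are not stated in the sources used here. The authors deposited FPKM per gene, identical in the series table and 9 single-library tables. The authors also deposited the count of each gene. The tables used here list 47 genes. FPKM corrects for length and depth but not for composition.

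Relative depth came from count divided by FPKM over 13 genes with at least 100 counts in every library. Replicates were checked against counting noise and none agreed within it. limma 3.58.1 in R 4.3.3 was fitted to log2(FPKM + 1) of the 29 genes with a mean of at least 0.5 FPKM, all 9 libraries in 1 fit with an intensity trend, Benjamini-Hochberg adjustment over the 29 and a threshold of 0.05. It was tested on simulated data. FPKM was preferred because no library totals were used with the counts. edgeR 4.0.16 and DESeq2 1.42.0 on counts, with library sizes from relative depth, were alternatives, beside another pseudocount, filters, scalings and left-out libraries. Python 3.11.15 was used for summaries. Named genes were the 3 members, the 3 nearest profiles of each, and listed markers and pathway genes in the table. Members, lists, tests and alternatives were chosen with earlier results of these data known.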

Additional observations from a re-analysis of the deposited data

How the results depend on the processing

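FKBP7 and MANEA differed in the same direction, and missed the threshold, under all 22 alternatives of the AKG-treated against control comparison, with differences of 0.25 to 0.92 for FKBP7 and 0.31 to 0.97 for MANEA and adjusted p from 0.357 to 1 and from 0.224 to 1. For CRYAB, 19 of 21 alternatives kept the sign and the side of the threshold (a mean of at least 5 FPKM drops the gene). That count does not show a stable result, since CRYAB passed the filter only through the AKG-free libraries. The 19 include fitted differences of 7.43 with edgeR and 6.04 with DESeq2's own size factors, beside 0.30 in the fit reported. The CRYAB difference was -0.17 with centring, and the gene passed with DESeq2 (fitted 6.75, adjusted p = 0.0293, the cause was not tested). Leaving out 1 library gave 0.17 (without AKG-treated library 1) to 0.44 for CRYAB, 0.40 (without control library 2) to 0.91 for FKBP7 and 0.58 to 0.97 for MANEA. The number of genes past the threshold was 1 with DESeq2, and 0 to 1 when 1 library was left out. The 1 was NPSR1, lower without AKG-treated library 1.

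For AKG-free against control, a pseudocount of 0.1 gave 6.74 for CRYAB. Quantile normalization gave 2.89, 0.84 and 0.47 and centring 2.43, 0.94 and 0.81 for CRYAB, FKBP7 and MANEA. For AKG-treated against AKG-free, a pseudocount of 0.1 gave -5.29 for CRYAB. Quantile normalization gave -2.61, -0.54 and 0.17 and centring -2.60, -0.68 and -0.43 for CRYAB, FKBP7 and MANEA. Leaving out 1 library gave 3.22 to 3.79, 1.73 to 2.35 and 1.66 to 2.24 for the first comparison, and -3.50 to -2.92, -1.62 to -1.09 and -1.40 to -0.86 for the second, in the same gene order. Scaling on the listed genes shifts values by construction, since these genes were presented as differing and their library medians differed between groups.

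With the replicate number as a block, 0 genes passed and the differences were as reported (0.30, 0.72 and 0.84 for AKG-treated against control). Same-numbered libraries did not clearly deviate together (correlations over the 29 genes from -0.22 to 0.20, with 1 of 9 pairs over 0.1, and 2 of 9 libraries nearest to their own number). The numbers were not used as pairs in the fit reported. With 3 libraries a group and 29 listed genes, this check cannot exclude that same-numbered libraries share a batch.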
